A study of Mus musculus with 16 samples.

Results

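The genes described here encode splicing factors and RNA helicases of the mouse. They were chosen by name, as all platform symbols that begin with Srsf, Snrp, Hnrnp, Ddx, Dhx or Prpf, or with Sf3a or Sf3b and a digit. The rule found 82 genes on 125 probes, of 9026 named genes on the array. The families held 8 Srsf, 8 Snrp, 6 Sf3, 10 Prpf, 13 Hnrnp, 25 Ddx and 12 Dhx genes.

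The animals were 4 male HdhQ111/+ heterozygotes on C57BL/6J, aged 18 weeks, which carry an expanded CAG repeat knocked into 1 copy of the mouse huntingtin gene. Liver and brain came from the same 4 mice. Each mouse was set against RNA of the same tissue pooled from 4 male wildtype C57BL/6J mice of 18 weeks, on 2 two-colour arrays with the dyes exchanged, which gave 16 arrays. The pool is 1 control sample, so every test against it leaves out the spread among wildtype mice. Whole organs were used, and in such RNA fewer cells of a type and less RNA per cell cannot be told apart.

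Splicing removes introns in the spliceosome, which is built from small nuclear ribonucleoproteins (snRNPs) and many further proteins. SR proteins, encoded by Srsf genes, bind exons and recruit snRNPs, while hnRNP proteins coat the nascent RNA and often repress the use of a site. DEAD-box (Ddx) and DEAH-box (Dhx) proteins use ATP to remodel RNA and RNA-protein complexes in splicing, ribosome assembly, export, translation and decay.

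All values are log2 ratios, taken as HdhQ111/+ over wildtype pool, averaged over the 2 arrays of a mouse and over the probes of a gene. A value of 0 means equal signal, and a ratio holds no expression level, so the labelled tissue could not be checked against its markers by level. A gene was tested when at least 3 mice had a value, which left 78 members in liver, 79 in brain and 77 in both. Arrays held 19530 to 20584 values. The number of arrays limits the precision, and the median SE of a member was 0.11 in liver and 0.14 in brain. The 2 arrays of a mouse and tissue correlated, as deposited, over probes at a Spearman rho between -0.313 and -0.0788. Differences between the dye orientations correlated between liver and brain at a rho of 0.396, and the means over both orientations at -0.00987. No source used here states which genotype is on top of the ratio. The direction is an assumption. Ratios over 10 in size were positive with mutant RNA in Cy5 and negative with it in Cy3. They fit mutant over wildtype if Cy3 was the channel with almost no signal, and the reverse if Cy5 was. No spot intensities were used, so these ratios cannot decide the direction. If the ratio ran the other way, every sign and every above and below given here would turn.

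No member passed an adjusted p of 0.05 in liver, in brain or in the difference between them. Over all genes tested, 0% passed in liver, 0.035% in brain and 0.0236% in liver minus brain. The lowest adjusted p of a member in limma was 0.575 in liver, 0.999 in brain and 0.677 for the difference. The 95% intervals of 74 of 78 members in liver and 74 of 79 in brain lay within 1 log2 unit of 0. They lay within 0.5 for 56 members in liver and 52 in brain. Member means ran between -0.57 and 0.37 in liver and between -0.41 and 1.09 in brain. Srsf10, Snrpc, Snrpn and Ddx4 had too few mice for the test in liver, and Snrpc, Prpf8 and Ddx4 in brain. For the members, 6 ratios over 10 in size were set missing. The values that follow describe members that did not pass.

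In liver, 61 of 78 members had a mean below 0, a share of 78.2%, against 56.6% of all genes. With the ratio turned, 78.2% would lie above 0. Their median was -0.11, against -0.03 over all genes. By mouse the members' median was -0.15, -0.16, -0.04 and 0.02, so that 3 of 4 mice lay below 0. The median over all genes was -0.07, -0.04, -0.02 and -0.0043 in the same mice. The count rests in part on 1 dye orientation: on arrays with mutant RNA in Cy5 alone, 40 members lay below 0 and the median was -0.006. Marker lists of neurons, astrocytes, oligodendrocytes, microglia and macrophages, pituitary, hepatocytes, lymphocytes and erythroid cells were also examined. Only the hepatocyte list had every mean on 1 side of 0 in liver. The 8 hepatocyte markers measured all had means below 0 in liver, with a median of -0.24 and mouse medians between -0.39 and -0.03. Their median was also dependent on the orientation, at 0.09 on Cy5 arrays and -0.52 on Cy3 arrays. On Cy5 arrays Apoh (-0.27) and F2 (-0.15) lay below 0, and Alb, Apoa1, Hpd, Serpina1b, Tat and Ttr lay above 0. Their part in the members' values was not tested.

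In brain, 53 of 79 members had a mean above 0, a share of 67.1%, against 56.7% of all genes. The median was 0.04 over the members and 0.02 over all genes. By mouse the members' median was -0.08, 0.04, 0.28 and -0.01, and mouse 3 stood highest. Mouse 3 was also highest over all genes, where the medians were -0.10, 0.01, 0.15 and 0.04. Without mouse 3, 44 members lay below 0 in brain, against 26 with it, and the median turned to -0.03. On arrays with mutant RNA in Cy3 alone, 52 members lay below 0. Most marker lists were mixed in sign in brain. Above 0 lay 3 of 6 neuron, 3 of 7 astrocyte, 2 of 6 oligodendrocyte and 4 of 7 microglia and macrophage markers. So did 4 of 5 lymphocyte, 1 of 3 erythroid and 1 of 6 hepatocyte markers. The 5 pituitary markers measured all lay below 0 in brain, with a median of -2.75 and mouse medians between -3.16 and -1.99. Among them Prl and Pomc, 2 markers, passed the test there. The pituitary median was -2.71 on Cy5 arrays and -2.80 on Cy3 arrays. Their part in the members' values was not tested.

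**Figure D1:**
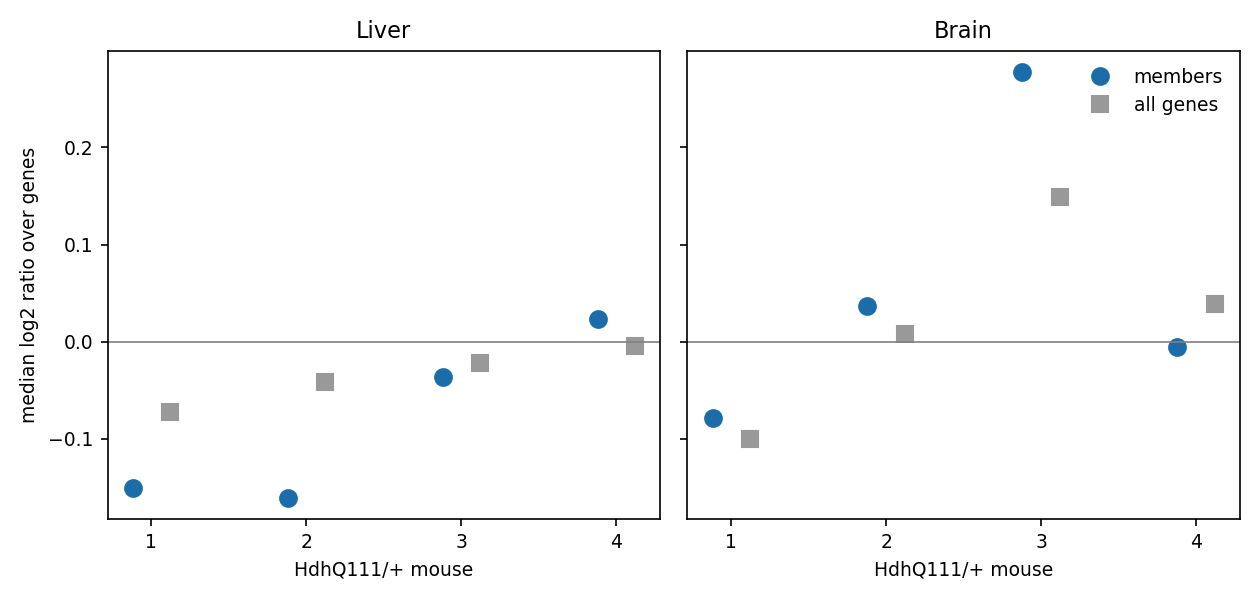
Median log2 ratio (vertical axis) over the members (circles) and over all genes (squares) in each HdhQ111/+ mouse (horizontal axis), liver left and brain right. In brain, mouse 3 is highest for both, at 0.28 for the members and 0.15 for all genes.

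By family, the liver medians ran between -0.13 and -0.04. The Srsf genes had -0.13 with 6 of 7 below 0, the Snrp genes -0.11 with 5 of 6, and the Sf3 genes -0.08 with 4 of 6. The Prpf genes had -0.10 with 7 of 10 below 0, the Hnrnp genes -0.12 with 11 of 13, the Ddx genes -0.12 with 21 of 24 and the Dhx genes -0.04 with 7 of 12. The Dhx family was thus nearest to the median of all genes. In brain the family medians ran between -0.01 and 0.13. All 7 Snrp genes (median 0.13) and all 6 Sf3 genes (median 0.09) lay above 0, against 56.7% of all genes. So did 6 of 8 Srsf, 8 of 13 Hnrnp, 15 of 24 Ddx and 7 of 12 Dhx genes, but only 4 of 9 Prpf genes. On Cy3 arrays the brain median was -0.17 for Snrp and -0.01 for Sf3. On Cy5 arrays these were 0.48 and 0.24. Family medians changed sign on 1 dye orientation for 4 of 7 families in liver (Cy5) and 5 of 7 in brain (Cy3), and for 4 of 7 in brain without mouse 3.

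**Figure D2:**
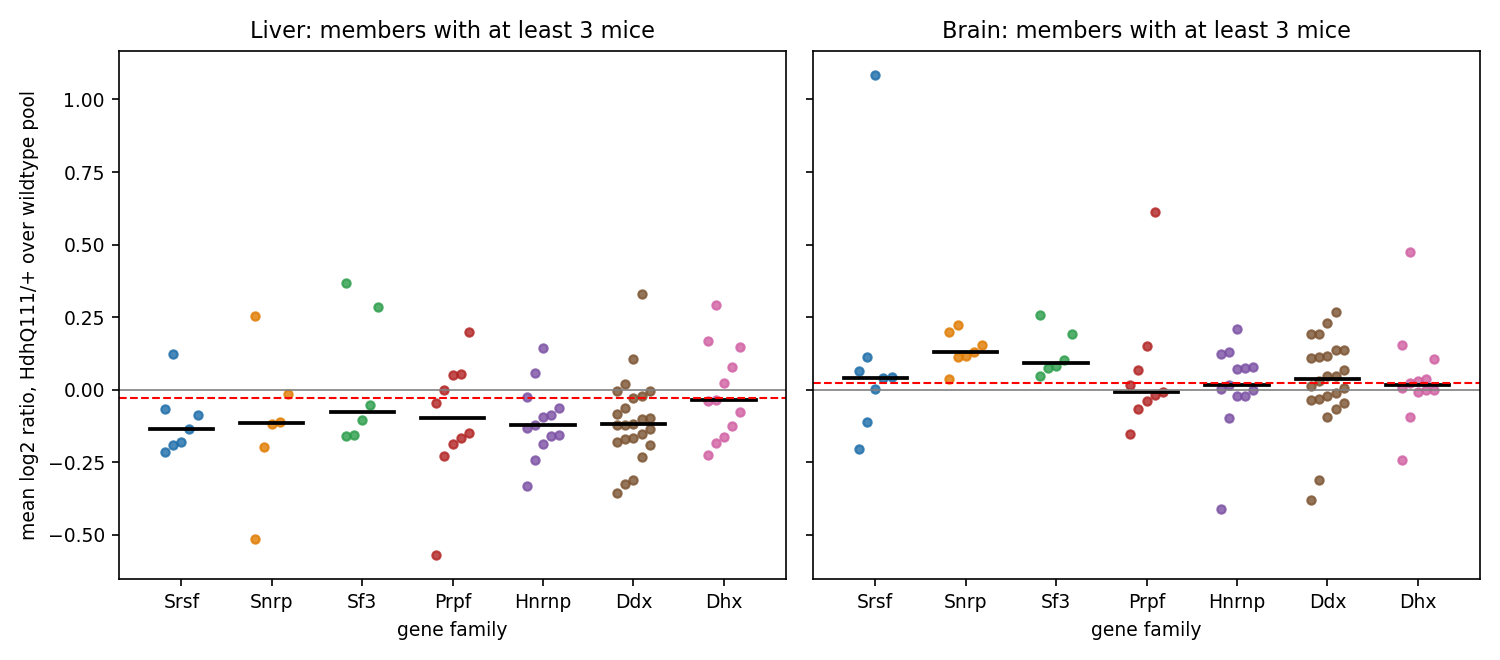
Mean log2 ratio of each tested member (points) by gene family, liver left and brain right. Black bars are family medians, the grey line is 0 and the red dashed line is the median of all genes, -0.03 in liver and 0.02 in brain.

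The promoters of 72 of the 82 members matched RefSeq's table for GRCm38.p6, in windows from 250 bases before to 50 after the start; for 17 members with several starts the first listed was used. Median GC content was 60% over the members and 52.7% over all 27025 genes of that table, which were not limited to genes on the array. On either strand, the GC box GGGCGG stood in 61.1% of member windows and 35.9% of all, CCAAT in 55.6% and 37.9%, TATAAA in 8.33% and 14.2%, the E-box CACGTG in 13.9% and 7.24%, and the ETS motif CCGGAAG in 37.5% and 9.12%. The NRF1 motif, the longest of the 6 searched, stood in 13.9% of member windows and 4.78% of all. A match is a run of letters and not a binding site. To show such windows, the 150 bases before the start are printed for 5 members that had all 4 liver values below 0, were among the 10 smallest p in liver and had 1 listed start. Capitals mark matches to these motifs on either strand, and each line runs 5′ to 3′ on the gene's strand.
Srsf3, chr17:29032510-29032659, plus strand: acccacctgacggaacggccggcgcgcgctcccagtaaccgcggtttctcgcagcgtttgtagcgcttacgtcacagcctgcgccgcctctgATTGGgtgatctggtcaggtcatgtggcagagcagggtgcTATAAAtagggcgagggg
Snrpa1, chr7:66060186-66060335, plus strand: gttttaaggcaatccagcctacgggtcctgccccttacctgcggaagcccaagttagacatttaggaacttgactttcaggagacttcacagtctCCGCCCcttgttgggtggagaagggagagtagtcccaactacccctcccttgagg
Hnrnpa1, chr15:103240247-103240396, plus strand: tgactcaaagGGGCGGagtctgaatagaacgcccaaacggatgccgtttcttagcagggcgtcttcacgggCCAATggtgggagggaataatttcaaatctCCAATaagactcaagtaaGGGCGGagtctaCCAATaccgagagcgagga
Hnrnpk, chr13:58402118-58402267, minus strand: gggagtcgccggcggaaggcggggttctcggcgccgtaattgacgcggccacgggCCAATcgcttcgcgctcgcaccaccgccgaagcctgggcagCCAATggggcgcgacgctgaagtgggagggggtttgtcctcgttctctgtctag
Ddx52, chr11:83941940-83942089, plus strand: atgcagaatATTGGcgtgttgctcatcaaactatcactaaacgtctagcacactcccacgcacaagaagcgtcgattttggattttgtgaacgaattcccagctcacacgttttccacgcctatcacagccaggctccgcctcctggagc
The Hnrnpa1 stretch held 2 GC boxes and 3 CCAAT matches, and the Srsf3 stretch held the TATAAA match.

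Among the SR protein genes, Srsf3, which encodes the smallest family member, had -0.09, -0.19, -0.26 and -0.18 in the 4 livers, all below 0. Its mean was -0.18 ± 0.07 (SD, n = 4) in liver and 0.06 ± 0.34 (SD, n = 4) in brain. Srsf1, a founding member that binds exonic enhancers, was the highest of the family in liver at 0.06, 0.06, 0.21 and 0.17. Over both probes all 4 mice lay above 0. The probe measured in all 4 livers had 0.15, 0.06, 0.008 and -0.10, so mouse 4 lay above 0 only through the other probe. In brain the 2 Srsf1 probes disagreed, at -0.27 and 0.48. Srsf4 had the lowest mean in both tissues, with -0.22, -0.54, -0.23 and 0.14 in liver and 0.37, -0.10, -1.01 and -0.08 in brain, and the brain mean rested on mouse 3. Srsf10 had values in 2 livers only (2.06 and -0.74) and in 3 brains (-0.33, 0.87 and 2.71), the widest spread of the family.

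Among snRNP proteins, Snrpa1, a U2 snRNP protein, had -0.26, -0.19, -0.27 and -0.06 in liver, all below 0, and 0.30, 0.18, 0.13 and -0.16 in brain, where 3 of 4 mice lay above 0. The liver minus brain difference was -0.31 (SE 0.15, limma: unadjusted p = 0.0632, adjusted p = 0.677). That fit, like those of the differences below unless stated, did not pair the tissues by mouse. With mouse as a block the unadjusted p was 0.116 (limma, SE 0.17, adjusted p = 0.691). Snrpb2, its partner in the U2 snRNP, had -2.11, 0.60 and -0.03 in 3 livers and -0.12, -0.32, 0.81 and 0.52 in brain, so 1 liver set its low mean. Snrpd1, of the Sm ring, had 1.24, -0.30, -0.04 and 0.13 in liver, where mouse 1 alone was far above 0. Snrpd3, also of the Sm ring, had all 4 brains above 0, at 0.15, 0.04, 0.28 and 0.06. Snrpa, a U1 snRNP protein, had the lowest family mean in brain, 0.04 ± 0.05 (SD, n = 4). Snrpn had 1 liver value (0.25) and -0.04, -0.28, 1.05 and -0.11 in brain, and Snrpc had 2 liver values (-0.93 and 1.75) and none in brain.

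The SF3a and SF3b proteins belong to the U2 snRNP and help it hold the branch point. Sf3b3 had 0.04, -0.27, 0.06 and -0.47 in liver and 0.14, 0.14, 0.34 and 0.13 in brain. It was the only 1 of 70 members with all 8 values whose tissues did not overlap with liver lower, against 3.69% of all genes. Its liver minus brain difference was -0.35 (SE 0.16, limma: unadjusted p = 0.0573, adjusted p = 0.677). With mouse as a block the unadjusted p was 0.0665 (limma, adjusted p = 0.684). No member had non-overlapping tissues with liver higher, against 1.28% of all genes. Sf3a1 lay above 0 in all 4 brains, at 0.08, 0.19, 0.38 and 0.37, and had -0.18, 0.90, 0.26 and 0.15 in liver. Sf3b6 was highest in liver at 0.37 ± 0.58 (SD, n = 4), but its 2 probes averaged 0.86 and -0.13. Sf3b2 had the lowest mean of the family in brain, 0.05 ± 0.07 (SD, n = 4).

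Some Prpf proteins act in the tri-snRNP, and others act elsewhere in splicing. Prpf6, a tri-snRNP scaffold, lay above 0 in all 4 brains, at 1.62, 0.18, 0.50 and 0.14, and mouse 1 was far above the rest. Its mean was 0.05 ± 0.15 (SD, n = 4) in liver and 0.61 ± 0.69 (SD, n = 4) in brain (limma: unadjusted p = 0.0535, adjusted p = 0.999). Prpf40b lay below 0 in all 4 livers, at -0.20, -0.33, -0.07 and -0.08. Prpf8, the large protein at the centre of the spliceosome, had -2.12, -0.48, -0.02 and 0.36 in liver and 2 brain values (0.63 and 0.50). Prpf3 had the highest liver mean of the family, 0.20 ± 0.35 (SD, n = 4), and Prpf38b the lowest brain mean, -0.15 ± 0.17 (SD, n = 4).

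Among the hnRNP genes, Hnrnpk, which encodes a protein that binds C-rich RNA, had -0.28, -0.29, -0.13 and -0.27 in liver, all below 0 (limma: unadjusted p = 0.0303, adjusted p = 0.575). In brain it had -1.26, 0.27, -0.60 and -0.07, the lowest family mean there, with 1 of 4 mice above 0. Hnrnpa1, which often represses exons, lay below 0 in all 4 livers at -0.25, -0.05, -0.18 and -0.14. Hnrnpc, which binds U-rich RNA, did so over its 3 probes, at -0.20, -0.09, -0.06 and -0.02. Only 1 Hnrnpc probe lay below 0 in all 4 livers, with a mean of -0.27, and the others averaged -0.03 and 0.03. Over both probes Hnrnpf had -0.34, -0.01, -0.998 and 0.02 in liver, the lowest family mean. The probe measured in all 4 livers had -0.34, -0.12, -0.50 and -0.31, all below 0, with a mean of -0.32. The other probe lacked mouse 1 and had 0.09, -1.49 and 0.35 in the rest, so the extreme of mouse 3 came mainly from it. Over its 2 probes Hnrnpab lay above 0 in all 4 livers at 0.13, 0.27, 0.06 and 0.12, but neither probe did so alone. Hnrnpm had the highest brain mean, 0.21 ± 0.23 (SD, n = 4).

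The 9 helicases of ribosome assembly, all Ddx genes, had liver means below 0. So did 21 of the 24 Ddx genes tested and 56.6% of all genes. The median of the 9 in liver was -0.12, at -0.03 on Cy5 arrays and -0.27 on Cy3 arrays. In brain 4 of 9 lay above 0, against 56.7% of all genes. Ddx52 had the smallest p of all members in liver, with -0.50, -0.51, -0.20 and -0.09 there and -0.15, 0.27, 0.32 and 0.02 in brain (limma: unadjusted p = 0.0268, adjusted p = 0.575). Its liver minus brain difference was -0.44 (SE 0.17, limma: unadjusted p = 0.0288, adjusted p = 0.677). With mouse as a block the unadjusted p was 0.0397 (limma, adjusted p = 0.684). Ddx47 had -0.89, -0.34, -0.12 and 0.11 in liver, where 3 of 4 mice lay below 0. Ddx54 differed between tissues by -0.38 (SE 0.19, limma: unadjusted p = 0.0666, adjusted p = 0.677). With mouse as a block the unadjusted p was 0.126 (limma, SE 0.22, adjusted p = 0.691). Ddx55 had the lowest Ddx mean in brain, with 0.14, 0.09, -1.08 and -0.67, 2 mice above and 2 below 0. Over its 2 probes Ddx56 lay below 0 in all 4 livers, at -0.20, -0.09, -0.0013 and -0.04. Neither probe did so alone, at -0.46, -0.15, 0.05 and 0.10 and at 0.06, -0.02, -0.05 and -0.18. Ddx18 lay above 0 in all 4 brains, at 0.27, 0.04, 0.16 and 0.09.

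Of 10 spliceosomal helicases, 8 lay below 0 in liver (median -0.06) and 7 above 0 in brain (median 0.02). Ddx39a, which also acts in mRNA export, had 0.001, -0.50, 0.02 and -0.18 in liver and -0.04, 0.46, 0.03 and 0.32 in brain. Ddx5, a helicase of splicing and transcription, had -0.17, -0.16, -0.23 and 0.01 in liver and -0.06, -0.01, 0.31 and 0.20 in brain, and both tissues overlapped. Of 7 helicases of translation, export and decay, 5 lay below 0 in liver (median -0.06) and 4 above 0 in brain (median 0.01). Over all genes, 56.6% lay below 0 in liver and 56.7% above 0 in brain.

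Both mitochondrial helicases had means above 0 in both tissues, but in liver both lay below 0 on Cy5 arrays, Dhx30 at -0.35 and Ddx28 at -0.51. On Cy3 arrays they averaged 0.72 and 1.17 in liver. Dhx30, which acts on the mitochondrial ribosome, had -0.11, 0.10, 0.43 and 0.18 in liver and 0.64, 0.25, 0.39 and 0.61 in brain, where it had the smallest p of all members (limma: unadjusted p = 0.00818, adjusted p = 0.999). Its 2 probes averaged 0.08 and 1.03 in brain, and the probe with 1.03 had values in 3 brains. The probe measured in all 4 brains had -0.17, 0.03, 0.39 and 0.07, so mouse 1 lay above 0 only through the other probe. With only probes measured in all 4 mice the liver minus brain difference was -0.07. Ddx28, a protein of mitochondrial ribosome assembly, lay above 0 in all 4 livers at 0.03, 0.46, 0.06 and 0.77.

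Dhx40 lay above 0 in all 4 livers, at 0.66, 0.20, 0.24 and 0.07, and had -0.11, -0.40, 0.20 and -0.66 in brain. Of its 2 probes, 1 had brain values in 2 mice only, at -0.42 and -1.48. The probe measured in all 4 brains had -0.11, -0.37, 0.20 and 0.16, with 2 of 4 mice above 0 and a mean of -0.031, against -0.24 over both probes. The liver minus brain difference was 0.53 (SE 0.21, limma: unadjusted p = 0.0327, adjusted p = 0.677). With mouse as a block it had an unadjusted p of 0.0240 (limma, adjusted p = 0.684). It was 0.32 when each tissue kept only probes measured in all 4 of its mice. That setting kept both probes in liver and 1 in brain. The probe kept in both tissues averaged 0.17 in liver and -0.031 in brain. Ddx11, a DNA helicase of chromosome cohesion, had the lowest Ddx mean in liver and the highest in brain, with -1.97, 0.62, 0.03 and -0.10 in liver and 0.46, 0.74, 0.28 and -0.40 in brain. Its liver mean was set by mouse 1. Dhx58, a sensor of viral RNA, had the lowest Dhx mean in liver, -0.22 ± 0.39 (SD, n = 4). Ddx4, a germ cell helicase, had no liver value and 1 in brain (0.72).

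**Figure D3:**
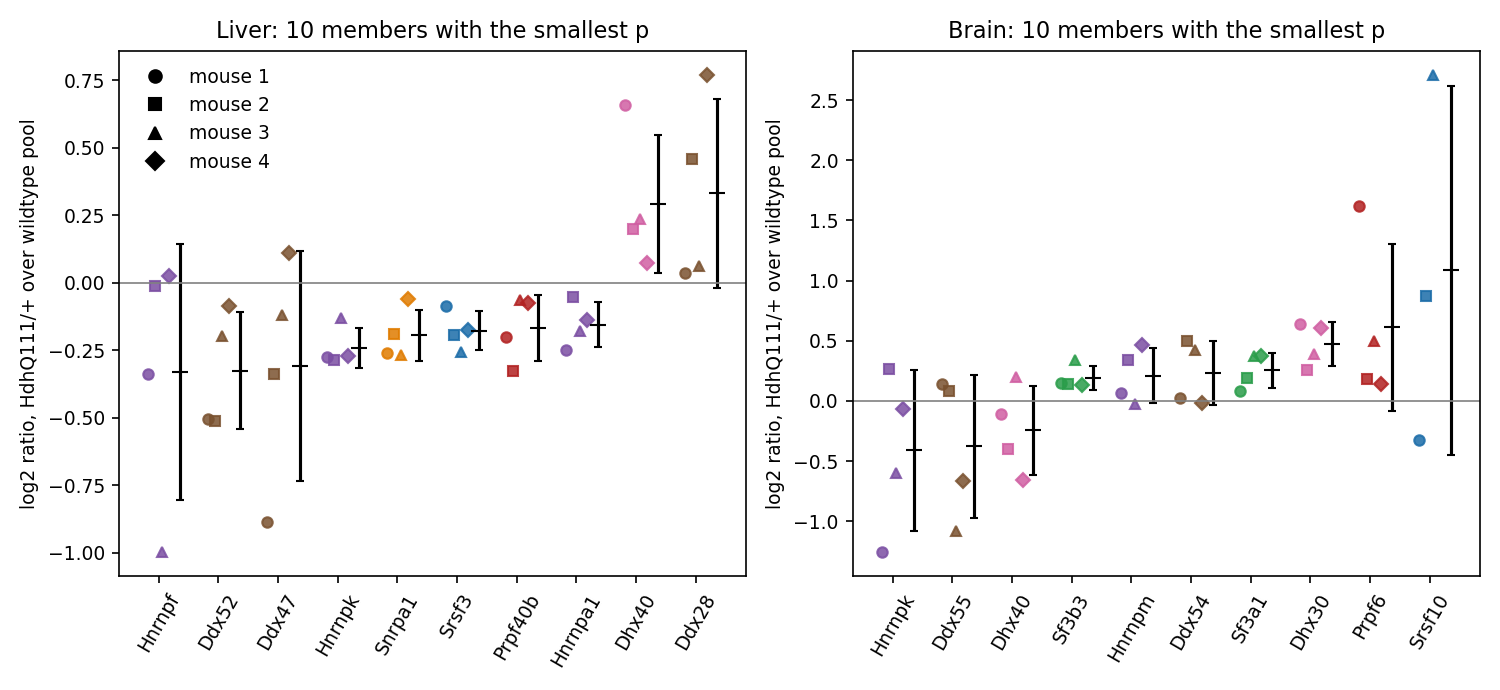
Log2 ratio of each HdhQ111/+ mouse (symbols) for the 10 members with the smallest p in liver (left) and in brain (right); black marks are means with SD. Ddx52 and Hnrnpk lie below 0 in all 4 livers, and Prpf6 above 0 in all 4 brains, as does Dhx30 over both probes.

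At an unadjusted p under 0.05, 2 members were lower in liver (Ddx52 and Hnrnpk) and 0 higher, against 5.24% and 3% of all genes. In brain 1 was higher (Dhx30) and 0 lower, against 1.89% and 2.03%. All 4 mice lay below 0 for 8 of 75 members in liver and above 0 for 4, against 14.2% and 6.52% of all genes. In brain all 4 lay above 0 for 6 of 73 members and below 0 for none, against 6.1% and 3.98%. These shares of members were near the background in both tissues.

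Liver minus brain was below 0 for 55 of 77 members, a share of 71.4%, against 57.4% of all genes. The median difference was -0.11 over the members and -0.05 over all genes. At an unadjusted p under 0.05, 1 member was lower in liver (Ddx52) and 1 higher (Dhx40), against 4.61% and 2.61% of all genes. No member lay below 0 in all 4 livers and above 0 in all 4 brains, or the reverse, against 0.995% and 0.336% of all genes. Over 77 members, which share arrays, the liver and brain means had a Pearson r of 0.119 and a Spearman rho of 0.013.

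**Figure D4:**
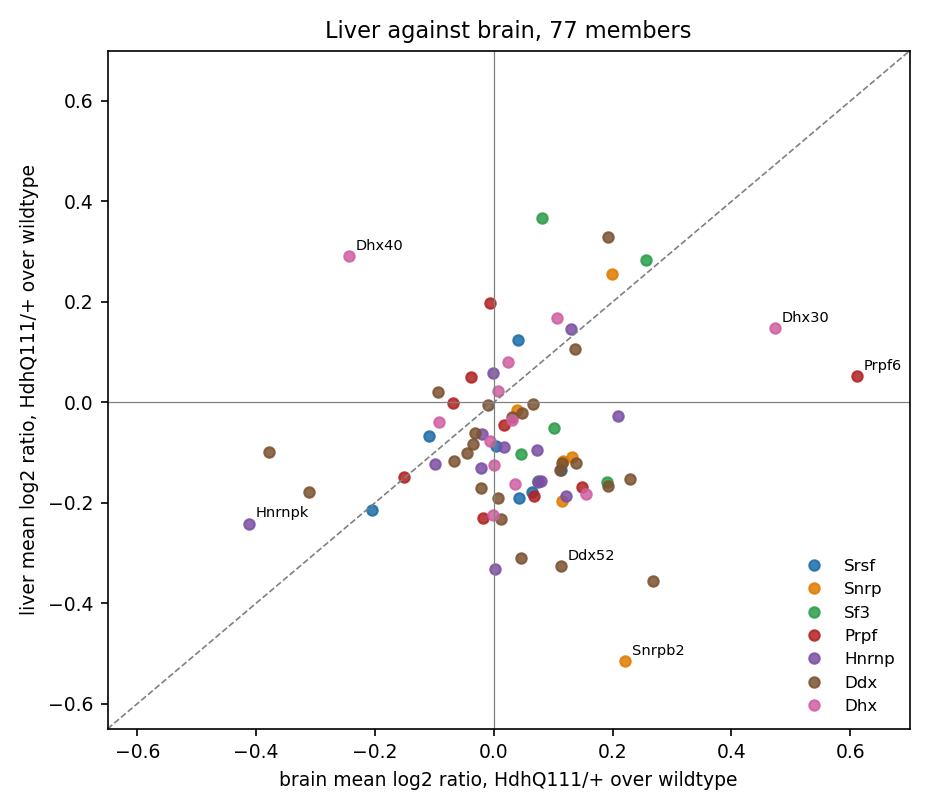
Mean log2 ratio in liver (vertical axis) against brain (horizontal axis) for 77 members, coloured by family; the dashed line marks equal values. Dhx40 lies above 0 in liver and, over both probes, below 0 in brain, and Snrpb2 and Ddx52 the other way.

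The median size of the dye term, the difference between the 2 orientations divided by their number, was 0.18 in liver and 0.15 in brain, against median sizes of the mean of 0.13 and 0.08. It exceeded the mean in 51 of 78 members in liver and 54 of 79 in brain. Over all genes it did so for 5621 of 8803 in liver and 5699 of 8567 in brain, a like share. The dye term correlated between liver and brain with a Spearman rho of 0.53 over the 77 members, against 0.369 over all genes. By Pearson r the order was reversed, at 0.395 over the members and 0.425 over all genes. Hnrnpk in brain averaged -1.41 on arrays with mutant RNA in Cy5 and 0.58 on those with it in Cy3.

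**Figure D5:**
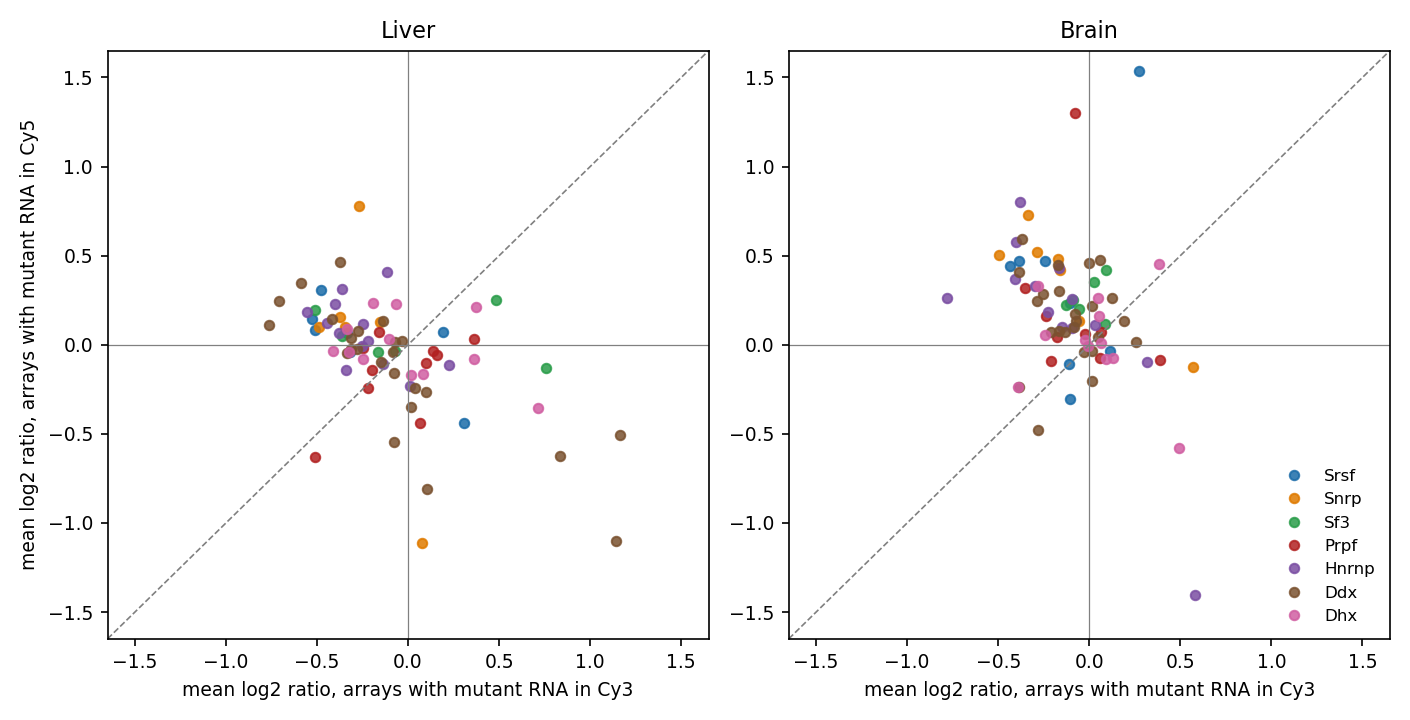
Mean log2 ratio on arrays with mutant RNA in Cy5 (vertical axis) against those with it in Cy3 (horizontal axis) for each tested member, liver left and brain right; the dashed line marks equal values. Most members lie off the line.

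Of 31 members with more than 1 probe, the probes had opposite signs for 14 in liver and 14 in brain. They ranged over more than 0.5 for 1 member in liver and 5 in brain. A member with all mice on 1 side of 0 over its probes could have a probe that crossed 0. This held in liver for Srsf1, Srsf3, Hnrnpab, Hnrnpc, Ddx56 and Dhx40, and in brain for Sf3a1, Snrpd3 and Dhx30.

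A pair of lists of related genes outside the name rule gave a comparison. Of other splicing genes, 36 of 61 lay below 0 in liver (median -0.03) and 43 of 62 above 0 in brain (median 0.05). Of other RNA helicases, 6 of 9 lay below 0 in liver and 6 of 9 above 0 in brain. None of them passed. The shares of all genes were 56.6% below 0 in liver and 56.7% above 0 in brain. Celf2, a regulator of alternative splicing, had 0.34, 0.78, 0.42 and 0.23 in liver (limma: unadjusted p = 0.00929, adjusted p = 0.575), and Ptbp2, a splicing repressor of neurons, had 0.003, 0.77, 0.40 and 1.05. Dicer1, which cuts microRNA precursors, had 0.71, 0.15, 0.20 and 0.22 in liver, and Eif4a1, a helicase of translation initiation, had -0.66, -0.35, -0.11 and -0.06. In brain, Isy1 had -0.54, -0.75 and -0.27 in 3 mice, Ppie 0.37, 0.37, 0.26 and -0.08, Mov10l1 -0.24, 0.01, -0.46 and -0.14 and Aqr -0.10, 0.20, 0.16 and 0.48. Celf2 lay above 0 in all 4 livers and Isy1 below 0 in all 3 brains.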

How the data were processed

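Liver and brain RNA of 4 HdhQ111/+ mice was compared with wildtype pools on 16 two-colour arrays. Per the labels' protocols, total RNA was reverse transcribed and indirectly labelled with Cy3 and Cy5. The authors deposited normalized log ratios, taken here as log2 values; the sources used here do not give base, direction, scanner, background correction or normalization. HdhQ111/+ over wildtype was assumed as the direction. All 769 ratios over 10 in size were positive on arrays with mutant RNA in Cy5, and all 727 negative on the others. Without spot intensities these signs cannot settle the direction. Ratios over 10 in size were set missing. The symbol of probe number n named value row n + 11, where probes of one gene agreed best (mean r 0.0544, against at most 0.022 at other offsets). Arrays of a mouse and probes of a gene were averaged. Each tissue was tested with limma 3.58.1 in R 4.3.3 (lmFit, eBayes) across all named genes with at least 3 mice, against 0, with Benjamini-Hochberg adjustment, and liver minus brain over the 8 mouse values. The script was tested on simulated data. The difference was first fitted without pairing by mouse. The same mice gave both tissues, so mouse was a valid block and was fitted as an alternative. Deviations of liver and brain of the same mouse correlated at rho -0.00757 to 0.0728. Named genes were, per fit, the 10 smallest p among members, and per tissue the highest and lowest mean of each family; outside the members, the 2 smallest p per list and tissue. Other members were chosen for all 4 mice on 1 side of 0, for too few values, or for their role, after their values were seen. Members and lists were chosen with earlier results of these data known. Alternatives covered centring, scaling, extreme ratios, single arrays, probe medians, mice needed, dye orientation, each mouse left out, row naming, symbols, robust variance and the block.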

Additional observations from a re-analysis of the deposited data

Results flagged for a closer look

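Of 58 sets of 4 mice examined, 4 held a mouse far from the other 3, and chance alone flags about 1 set in 20. Hnrnpk in liver was -0.13 in mouse 3, against -0.29 to -0.27 in the other mice. Dicer1 in liver was 0.71 in mouse 1, against 0.15 to 0.22. Sf3b3 in brain was 0.34 in mouse 3, against 0.13 to 0.15. The median of the Dhx genes in brain was 0.37 in mouse 3, against -0.06 to -0.01.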

How the results depend on the processing

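The number of members that passed stayed 0 in liver, brain and their difference under every alternative run, also with mouse as a replicate block, where 2 genes of all passed, as without it. With unadjusted p under 0.05 the alternatives gave 1 to 18 members in liver, 1 to 13 in brain and 0 to 8 for the difference. Genes passing in brain ran between 0 and 3 (3 in the reported fit), and for the difference between 0 and 3 (2). Members below 0 in liver numbered 40 on Cy5 arrays (61 reported), with a median of -0.006 (-0.11), and 55 to 58 with a mouse left out. In brain 52 lay below 0 on Cy3 arrays (26 reported), 34 after centring and scaling, and 18 to 44 with a mouse left out. On Cy5 arrays the sign turned in liver for Ddx28 (-0.51), Ddx52 (0.11), Hnrnpa1 (0.067), Hnrnpf (0.12), Sf3b3 (0.20), Snrpa1 (0.10), Srsf4 (0.084) and Dhx30 (-0.35), and in brain for Isy1 (0.51) and Snrpb2 (-0.13). On Cy3 arrays it turned in liver for Ddx11 (0.10), Hnrnpab (-0.12), Snrpb2 (0.078) and Snrpd1 (-0.27), in brain for Hnrnpk (0.58), Hnrnpm (-0.38), Prpf6 (-0.079), Sf3b2 (-0.13) and Snrpa (-0.057), and in the difference for Dhx30 (0.33) and Prpf6 (0.22). These lists are not complete, as they mainly follow the tissue or difference for which a gene was named. Of members given with all 4 mice on 1 side of 0, the sign also turned on Cy3 arrays for Ddx18 (-0.17) and Snrpd3 (-0.16) in brain. It did so for Ddx56 (0.10) and Hnrnpc (0.011) in liver. Further turns were Snrpa1 (-0.29) and Ddx52 (-0.37) in brain on Cy3 arrays, and Sf3a1 (-0.13) and Ddx5 (0.15) in liver on Cy5 arrays, among others. With ratios over 10 kept Isy1 in brain was 1.68. With a mouse left out Ddx11 in liver ran between -0.679 and 0.182 and Snrpd1 between -0.073 and 0.441, both turning without mouse 1, and Srsf4 in brain between -0.397 and 0.066, turning without mouse 3. The causes were not tested beyond these settings. Restricting to probes with all 4 mice was chosen after seeing the data.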
